A study of Homo sapiens with 4 samples.

Results

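The 10 genes described here encode enzymes of the kynurenine pathway, the main route of tryptophan breakdown, apart from *IDO1*. They are *IDO2*, *TDO2*, *AFMID*, *KYNU*, *KMO*, *HAAO*, *QPRT*, *AADAT*, *KYAT1* and *KYAT3*, 10 of the 20033 protein-coding genes in the GENCODE 44 annotation. These genes were taken by symbol from a list, with no cutoff on a measured value. The list was chosen with earlier results of these data known. Flag-FLI1 binding was mapped by chromatin immunoprecipitation and sequencing (ChIP-seq) in HK1, a cell line established from nasopharyngeal carcinoma, with 1 library from cells given PBS (the control) and 1 from cells given IFN-γ for 24 h. Both groups overexpressed Flag-tagged FLI1 and chromatin was pulled down through the tag, and the peaks therefore follow the added protein, not FLI1 at its native level. For each gene all peaks were taken that lay within 3 kb of an annotated transcription start site (TSS), in the gene body, or within 50 kb of the gene. This gave 38 of the 30819 control peaks and 51 of the 39654 IFN-γ peaks. There were no replicates, so the treatment was not tested, and it cannot be told apart from anything else that differs between 2 single libraries.

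The pathway starts when IDO1, IDO2 or TDO2 opens the indole ring of tryptophan, and AFMID then releases kynurenine, a metabolite known to restrain T cells in tumors. From kynurenine, KMO, KYNU, HAAO and QPRT lead towards NAD, while AADAT, KYAT1 and KYAT3 divert it to kynurenic acid. FLI1 is an ETS factor, a family that reads a GGAA core, and the EWS-FLI1 fusion of Ewing sarcoma is also known for binding GGAA repeats.

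The sequences at a few summits show what kinds of DNA lay under these peaks. All are from GRCh38, plus strand, centred on the summit. Capitals mark GGAA cores on either strand (GGAA or TTCC), the AP-1 motif TGANTCA read by Fos and Jun dimers, and the cAMP response element TGACGTCA, a motif that was added after the *KYAT1* sequence had been seen. *TDO2*, *KYNU* and *KMO* are shown because their peaks lay on AP-1 motifs, on GGAA repeats or on single cores. *KYAT1* is shown because its promoter carried the strongest peak at any of the 10 genes, *KYAT3* and *AFMID* as the other promoter peaks, and *HAAO* as a distal peak. Where a window met an untranslated region it was limited to 29 bases.
*TDO2*, inside the gene, chr4:155889547-155889647: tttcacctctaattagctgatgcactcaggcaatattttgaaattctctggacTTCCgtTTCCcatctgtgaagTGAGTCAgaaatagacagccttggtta
*KYNU*, upstream IFN-γ summit, chr2:142873522-142873622: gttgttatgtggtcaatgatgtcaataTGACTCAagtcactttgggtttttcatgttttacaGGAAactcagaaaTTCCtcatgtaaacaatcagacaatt
*KYNU*, beyond the gene, IFN-γ library alone, chr2:143083827-143083927: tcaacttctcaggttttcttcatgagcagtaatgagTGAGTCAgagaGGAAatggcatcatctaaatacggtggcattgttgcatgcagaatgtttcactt
*KMO*, promoter, control summit, chr1:241531682-241531782: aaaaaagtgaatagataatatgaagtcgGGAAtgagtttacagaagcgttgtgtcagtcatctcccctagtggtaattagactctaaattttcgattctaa
*KMO*, promoter, IFN-γ summit, chr1:241531553-241531653: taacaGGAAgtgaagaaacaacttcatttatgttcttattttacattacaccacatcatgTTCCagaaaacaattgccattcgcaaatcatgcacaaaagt
*KMO*, intron 4, chr1:241554202-241554302: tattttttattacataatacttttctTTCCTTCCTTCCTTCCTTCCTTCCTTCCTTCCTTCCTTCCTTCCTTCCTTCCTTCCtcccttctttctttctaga
*KMO*, intron 7, chr1:241562868-241562968: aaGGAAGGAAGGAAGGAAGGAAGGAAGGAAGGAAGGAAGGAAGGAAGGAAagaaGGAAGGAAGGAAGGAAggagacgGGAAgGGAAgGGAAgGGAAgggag
*KMO*, exon 15, chr1:241592009-241592109: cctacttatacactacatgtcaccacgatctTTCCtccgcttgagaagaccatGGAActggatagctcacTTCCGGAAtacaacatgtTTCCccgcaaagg
*KYAT1*, promoter, chr9:128882091-128882119: ttcgcgcccggcggTGACGTCAcTTCCgg
*KYAT3*, promoter, chr1:88992588-88992616: tccggtgcgGGAAcctcgcctccctaggc
*AFMID*, promoter, IFN-γ summit, chr17:78186773-78186873: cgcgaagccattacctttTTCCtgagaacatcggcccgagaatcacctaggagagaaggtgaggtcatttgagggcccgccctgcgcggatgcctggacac
*HAAO*, upstream, chr2:42810012-42810112: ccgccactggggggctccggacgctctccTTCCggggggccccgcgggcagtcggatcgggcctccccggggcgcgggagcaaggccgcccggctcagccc

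Flag-FLI1 peaks lay at the promoters of *AFMID*, *KYNU*, *KMO*, *KYAT1* and *KYAT3* in both libraries, and no promoter peak was listed for *IDO2*, *TDO2*, *HAAO*, *QPRT* or *AADAT* in either. Thus 5 of the 10 genes had a peak within 3 kb of a TSS in each library, beside 61.9% (control) and 59.7% (IFN-γ) of all coding genes. A site without a listed peak is one that is not in the list of that library, whose lowest −log10 p was 3.52 (control) or 3.46 (IFN-γ), and weaker binding there cannot be seen in the lists. By the whole rule, all 10 genes had at least 1 peak in each library, as did 85.8% of coding genes in the control and 88.8% in the IFN-γ library. Many of these peaks lay closer to the TSS of another gene. Counting only peaks whose nearest TSS was the gene's own, 5 of 10 genes kept a peak in the control library and 7 of 10 in the IFN-γ library, beside 57% and 58.4% of coding genes. The control peaks comprised 6 at promoters of the 10 genes, 6 elsewhere in gene bodies and 26 in the flanks, and 18 of those 26 lay at the promoter of another gene. The IFN-γ peaks comprised 8, 9 and 34, with 18 of the 34 at the promoter of another gene.

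**Figure D1:**
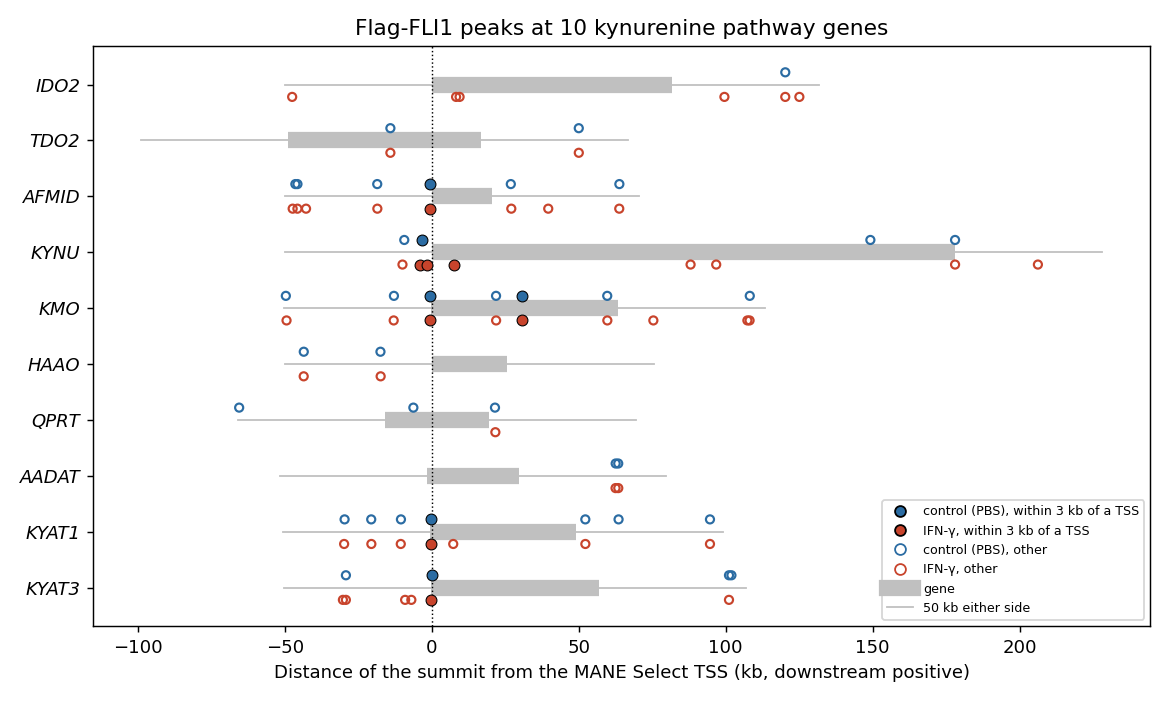
Position of every Flag-FLI1 peak around the 10 genes, as the distance of its summit from the MANE Select TSS in kb, with the gene as a thick bar and the 50 kb flanks as thin lines. Filled points are peaks within 3 kb of a TSS of the gene, and are present for *AFMID*, *KYNU*, *KMO*, *KYAT1* and *KYAT3* alone.

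Fold enrichment in the lists is the authors' value over the local background at the summit, and the number of fragments piled up there was recovered from it and the p-value. The median fold at the 10 genes was 6.47 in the control and 6.31 in the IFN-γ library, beside 6.81 and 6.57 over all peaks. The median summit pileup at these genes was 15 and 22 fragments, against 16 and 22 over all peaks. The IFN-γ library was deeper by a ratio of 1.46, the ratio of the lowest backgrounds (1.06 and 1.54 fragments), and pileup ratios below are IFN-γ over control after scaling by it. Their intervals are exact 95% binomial intervals that cover counting error only.

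**Figure D2:**
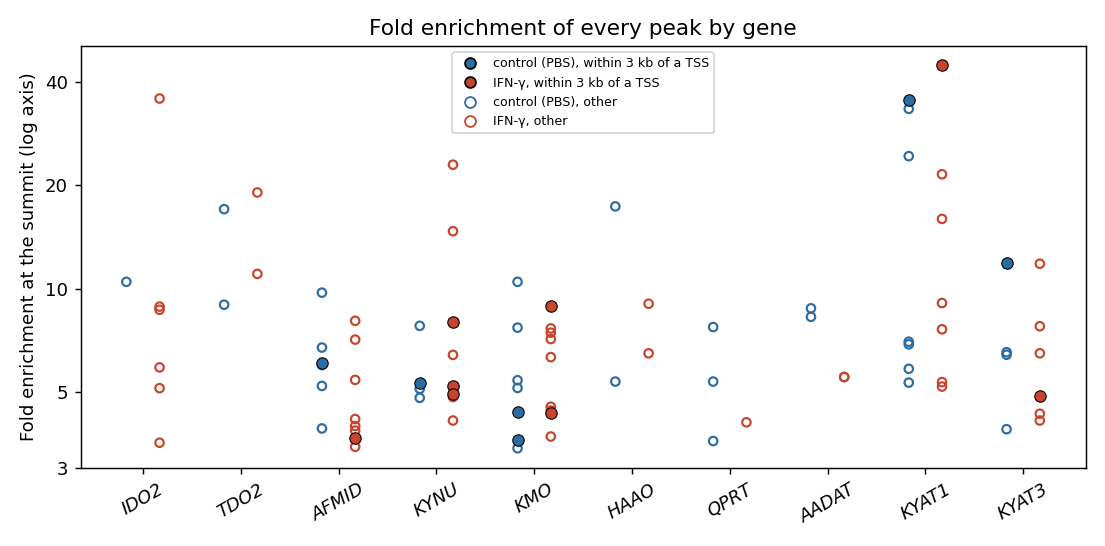
Fold enrichment at the summit of every peak, on a log axis, by gene and library, with filled points for peaks within 3 kb of a TSS of the gene. The *KYAT1* promoter stands highest, at 35.5 in the control and 44.9 in the IFN-γ library.

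*IDO2* (ENSG00000188676), which encodes a dioxygenase of the pathway's opening reaction, lies on chromosome 8 from 39934614 to 40016392 on the plus strand. It had 1 control peak and 6 IFN-γ peaks. The peak held by both libraries lay 38.3 kb beyond the end of the gene and 120 kb from the MANE Select TSS, with 27 fragments in the control library (fold 10.5) and 90 in the IFN-γ library (fold 35.9). Its depth-scaled ratio was 2.29 (1.47 to 3.66), and the backgrounds were 1.68 and 1.54 fragments. The nearest annotated TSS was that of ENSG00000253381, 49.3 kb away, and there was a single GGAA core and no ETS octamer, GGAA repeat or AP-1 motif within 100 bp of the summit. In the gene itself, 2 peaks in intron 1 were listed for the IFN-γ library alone, 8.25 kb and 9.45 kb downstream of the MANE TSS, with 21 and 8 fragments. The former held an AP-1 motif. The remaining IFN-γ peaks lay 47.5 kb upstream, closer to a TSS of *IDO1* than to any of *IDO2*, and 99.6 kb and 125 kb downstream of the MANE TSS, with 25, 14 and 15 fragments.

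*TDO2* (ENSG00000151790), the dioxygenase best known from liver, lies on chromosome 4 from 155854738 to 155920406 on the plus strand. Its peaks differed between the libraries by less than counting error. The peak inside the gene, 14.1 kb upstream of the MANE TSS and outside any exon, had 20 control and 27 IFN-γ fragments, with folds of 8.97 and 11.04. The ratio was 0.927 (0.501 to 1.74) and the summits were 3 bp apart. As the sequence shows, this site paired GGAA cores with an AP-1 motif. The other peak lay 32.9 kb beyond the gene at the promoter of *CTSO*, a cysteine protease gene, with 38 and 55 fragments and a ratio of 0.994 (0.646 to 1.54).

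*AFMID* (ENSG00000183077), which encodes the formamidase that yields kynurenine, lies on chromosome 17 from 78187358 to 78207702 on the plus strand. Its promoter peak was weak in both libraries, with 12 control and 13 IFN-γ fragments and folds of 6.07 and 3.65. The ratio was 0.744 (0.313 to 1.78). The printed sequence is that of the IFN-γ summit. The 101 bases centred on the control summit held no GGAA core, although 1 core lay within 100 bp of it. *AFMID* starts head to head with *TK1*, the thymidine kinase gene, at a distance of 310 bp, and the control and IFN-γ summits were 495 bp and 535 bp from an *AFMID* TSS but 158 bp and 198 bp from a *TK1* TSS. The promoter peak thus cannot be given to *AFMID* alone. The neighborhood was crowded with promoters, and 4 more peaks were held by both libraries. The peak 45.7 kb upstream near *TMC8* had 17 and 17 fragments (ratio 0.687, 0.330 to 1.43). The peak at *SYNGR2* had 19 and 14 (0.506, 0.235 to 1.06). At *BIRC5*, which encodes the apoptosis inhibitor survivin, there were 12 and 10 fragments (0.572, 0.222 to 1.45). The peak 63.8 kb downstream at ENSG00000279886 had 15 and 24 (1.10, 0.553 to 2.25), and every interval in this region included 1.

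*KYNU* (ENSG00000115919), which encodes kynureninase, lies on chromosome 2 from 142877657 to 143055833 on the plus strand. It had 4 control peaks and 8 IFN-γ peaks, and 2 sites were held by both. At the 3′ end of the gene, a peak in the untranslated part of exon 14, 178 kb from the MANE TSS, had 15 control and 71 IFN-γ fragments. The ratio was 3.25 (1.84 to 6.11), and fold enrichment was 7.79 and 14.7. The background under the same summit was 1.06 fragments in the control and 3.89 in the IFN-γ library, a larger difference than the depth. The summits, 4 bp apart, lay 8 bp and 12 bp from a run of 13 GGAA units at 143055634 to 143055685. How reads were placed in such repeats was not tested. Upstream of the gene, a control peak with 15 fragments and an IFN-γ peak with 38 overlapped, with a ratio of 1.74 (0.935 to 3.40). Their summits were 905 bp apart, 3.19 kb and 4.09 kb from the MANE TSS, so the ratio sets different summits side by side, and only the edge of each peak lay within 3 kb of a TSS. The IFN-γ summit held the AP-1 motif printed above, and the control summit also had 1 within 100 bp.

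A further 6 *KYNU* peaks were listed for the IFN-γ library alone. The strongest lay 27.8 kb beyond the gene and 7.49 kb from a TSS of *ARHGAP15*, with 79 fragments over a background of 2.48 and a fold of 23. It ranked in the top 5.33% of the IFN-γ list by −log10 p. Scaled to the control depth this is 54.3 fragments, above the control median, at a site where the control list had no peak. Its sequence has an AP-1 motif 4 bases from a GGAA core, and 2 ISRE-like matches lay within 100 bp. In intron 8, peaks of 17 and 13 fragments each held an AP-1 motif. At promoters, a peak 1.65 kb upstream of the MANE TSS had 14 fragments, and a peak in intron 1, 350 bp from another annotated *KYNU* TSS, had 12. The latter held no GGAA core within 100 bp. The last of these peaks lay 9.99 kb upstream, with 12 fragments, close to but not overlapping a control peak of 11 fragments 9.38 kb upstream. The other control peak without a counterpart was in intron 10, with 10 fragments.

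**Figure D3:**
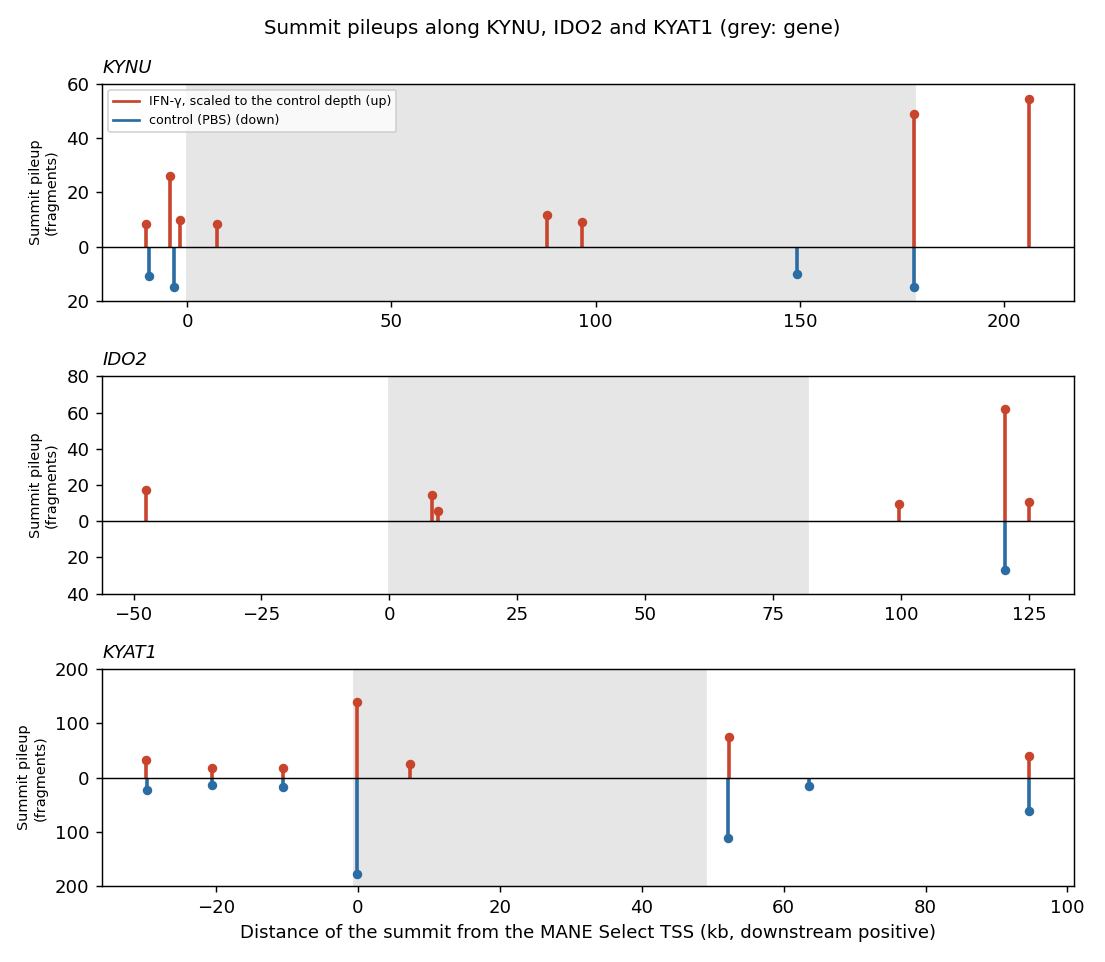
Summit pileup in fragments against distance from the MANE Select TSS in kb at *KYNU*, *IDO2* and *KYAT1*, with the IFN-γ library upward, scaled to the control depth, the control library downward, and the gene shaded. At *KYNU* the tallest IFN-γ stem, 54.3 fragments, has no control stem opposite it, while at *KYAT1* the tallest stems face each other.

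*KMO* (ENSG00000117009), which encodes the flavoenzyme kynurenine monooxygenase, lies on chromosome 1 from 241532134 to 241595642 on the plus strand. Its territory had 7 control and 9 IFN-γ peaks, and 7 pairs of peaks were matched. The promoter peak had 13 control and 30 IFN-γ fragments, with folds of 4.35 and 8.91. The ratio was 1.58 (0.802 to 3.31), an interval that includes 1. The summits lay 402 bp and 531 bp upstream of the outermost TSS, and only the IFN-γ summit held an ETS octamer within 100 bp. In intron 4 a peak with 11 and 15 fragments sat on a run of 14 GGAA units at 241554228 to 241554283 (ratio 0.937, 0.402 to 2.25). In intron 7 another sat on 13 units at 241562866 to 241562917, with 7 and 10 fragments (0.981, 0.337 to 3.04). This intron 7 peak also counts as a promoter peak, since a *KMO* transcript starts 902 bp and 865 bp from its summits. Both repeat peaks ranked below the median of their lists in both libraries. Exon 15 held a peak with an ETS octamer, 11 and 25 fragments and a ratio of 1.56 (0.741 to 3.51).

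In the flanks of *KMO* the matched peaks lay mostly at promoters of neighbors. The peak at *FH*, the fumarate hydratase gene, had 17 control and 11 IFN-γ fragments (ratio 0.444, 0.188 to 1.01). The peak 108 kb downstream at ENSG00000287513 had 27 and 22 (0.560, 0.304 to 1.02) and was the strongest control peak of the territory. The peak 49.7 kb upstream near ENSG00000287738 had 7 and 19 (1.86, 0.750 to 5.25). Each of these intervals included 1. An IFN-γ peak with no counterpart, 75.4 kb downstream, had 23 fragments and covered 4 GGAA units in tandem.

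*HAAO* (ENSG00000162882), which encodes the dioxygenase that makes the precursor of quinolinic acid, lies on chromosome 2 from 42767089 to 42792593 on the minus strand. Both of its peaks lay upstream and were held by both libraries, and in the control library the nearest annotated TSSs were 11.4 kb and 8.54 kb away, at the pseudogenes *FTOP1* and *CHORDC1P1*. The stronger, 17.5 kb upstream, had 35 control and 29 IFN-γ fragments, with folds of 17.4 and 9.03 over backgrounds of 1.07 and 2.32. Its ratio was 0.569 (0.336 to 0.958). The other, 43.6 kb upstream, had 10 and 23 fragments, a ratio of 1.58 (0.723 to 3.72) and an AP-1 motif. Only the interval of the stronger peak excluded 1, and the intervals of these neighbors overlapped. No difference in direction can be read from them.

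*QPRT* (ENSG00000103485), whose product turns quinolinic acid into a precursor of NAD, lies on chromosome 16 from 29663279 to 29698699 on the plus strand. It was the only gene of the 10 with more peaks in the control (3) than in the IFN-γ library (1). The site held by both lay 1.69 kb beyond the gene, with 15 and 10 fragments and folds of 7.72 and 4.07. The ratio was 0.458 (0.184 to 1.09), and the summits were 126 bp apart. The control peaks without a counterpart had 10 fragments 65.6 kb upstream of the MANE TSS, at *SLC7A5P1*, and 7 fragments inside the gene 6.28 kb upstream of it, the latter near the lowest pileup listed.

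*AADAT* (ENSG00000109576), the mitochondrial kynurenine aminotransferase gene, lies on chromosome 4 from 170060222 to 170091699 on the minus strand. It had no peak of its own. Both sites lay over 60 kb downstream of its MANE TSS, at the promoter of *MFAP3L*. The pileups were 17 control and 13 IFN-γ fragments at one (ratio 0.525, 0.235 to 1.15) and 16 and 13 at the other (0.558, 0.247 to 1.24). In RefSeq promoter windows (GRCh38.p14, mostly upstream of each start), which 9 of the 10 genes had, an ETS octamer was found for *AADAT* and *KYAT1*. Such an octamer was in 7.02% of the 35116 windows of all genes. That share is per window and not per gene. The 9 genes had 14 windows, with several each for *AADAT* and *KYAT1*. *AADAT* therefore had an octamer next to a start but no listed peak there, whereas *KYAT1* had both.

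*KYAT1* (ENSG00000171097), a cytosolic aminotransferase gene, lies on chromosome 9 from 128832942 to 128882494 on the minus strand. Its promoter carried the strongest peak of the 10 genes in both libraries. The pileup was 177 control and 203 IFN-γ fragments, with folds of 35.5 and 44.9 and −log10 p of 219 and 274. By −log10 p the peak stood in the top 0.415% of the control list and the top 0.446% of the IFN-γ list. Its ratio was 0.788 (0.641 to 0.969), an interval that includes the median of 0.883 over all shared pairs at promoters. *LRRC8A*, a volume-regulated anion channel gene, starts head to head with *KYAT1* at a distance of 183 bp. Distances from the summits were 69 bp and 84 bp to a *KYAT1* TSS and 28 bp and 13 bp to an *LRRC8A* TSS, so the peak belongs to both promoters. The printed sequence has the cAMP response element 1 base before the core of an ETS octamer. The cAMP response element was in 0.876% of all control summit windows and 0.648% of all IFN-γ windows. It was in 1.85% of the RefSeq promoter windows of all genes. Since this motif was chosen after the sequence had been seen, these shares are a description and not a test.

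Around *KYAT1*, 5 other sites were matched. At *SPOUT1* the pileup was 111 and 109 fragments (ratio 0.674, 0.513 to 0.887), and at *TBC1D13* it was 62 and 57 (0.631, 0.433 to 0.920). These intervals lay below 1 but reached the promoter median. Upstream, with *LRRC8A* as the gene of the nearest TSS, peaks 10.5 kb, 20.6 kb and 29.7 kb from the *KYAT1* MANE TSS had 17 and 27 (1.09, 0.573 to 2.13), 13 and 25 (1.32, 0.651 to 2.81), and 22 and 47 fragments (1.47, 0.867 to 2.56). All 3 of these intervals included 1. A peak in intron 1 of *KYAT1* was listed for the IFN-γ library alone, with 37 fragments and a fold of 9.08. A control peak without a counterpart, at *ENDOG*, had 15 fragments.

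*KYAT3* (ENSG00000137944), the gene of a further kynurenine aminotransferase, lies on chromosome 1 from 88935773 to 88992953 on the minus strand. Its promoter peak had 32 control and 28 IFN-γ fragments, with folds of 11.8 and 4.87. The background under it was 1.79 and 4.96 fragments, and the ratio of pileups was 0.601 (0.349 to 1.03). The summits were 180 bp apart, so the ratio sets different positions side by side. The printed sequence is that of the control summit. The 29 bases at the IFN-γ summit held no GGAA core, although 3 cores lay within 100 bp of it. *KYAT3* and *RBMXL1* share a MANE TSS, at a distance of 0 bp, so this peak cannot be given to either gene alone. At the promoter of *GTF2B*, a general transcription factor gene, matched peaks had 23 and 24 fragments (0.717, 0.387 to 1.33). At *GBP3*, an interferon-inducible guanylate-binding protein gene 29.2 kb upstream, they had 14 and 25 (1.23, 0.613 to 2.55). A separate peak 9 bp from a *GBP3* TSS was listed for the IFN-γ library alone, with 41 fragments and a fold of 11.8, and was the strongest IFN-γ peak in the *KYAT3* territory. It held an AP-1 motif, a GAS motif and an ISRE-like motif.

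Over the 10 genes, 32 of 38 control peaks (84.2%) and 32 of 51 IFN-γ peaks (62.7%) overlapped a peak of the other list, against 77.5% and 61.0% of all peaks. They formed 31 pairs. The median ratio was 0.730 for the 20 pairs at a promoter of any gene and 1.09 for the 11 distal pairs, beside 0.883 over all 13631 promoter pairs and 1.24 over all 9858 distal pairs. The interval lay wholly above the median of its class in 3 of 31 pairs (9.68%), as it did in 10.5% of all pairs, and wholly below it in 2 of 31 (6.45%), as in 5.73% of all pairs. Those above were the pair beyond *IDO2*, the exon 14 pair of *KYNU* and the upstream *KYNU* pair with distant summits. Those below were the pair 17.5 kb upstream of *HAAO* and the pair beyond *QPRT*. These shares were close to those over all pairs.

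**Figure D4:**
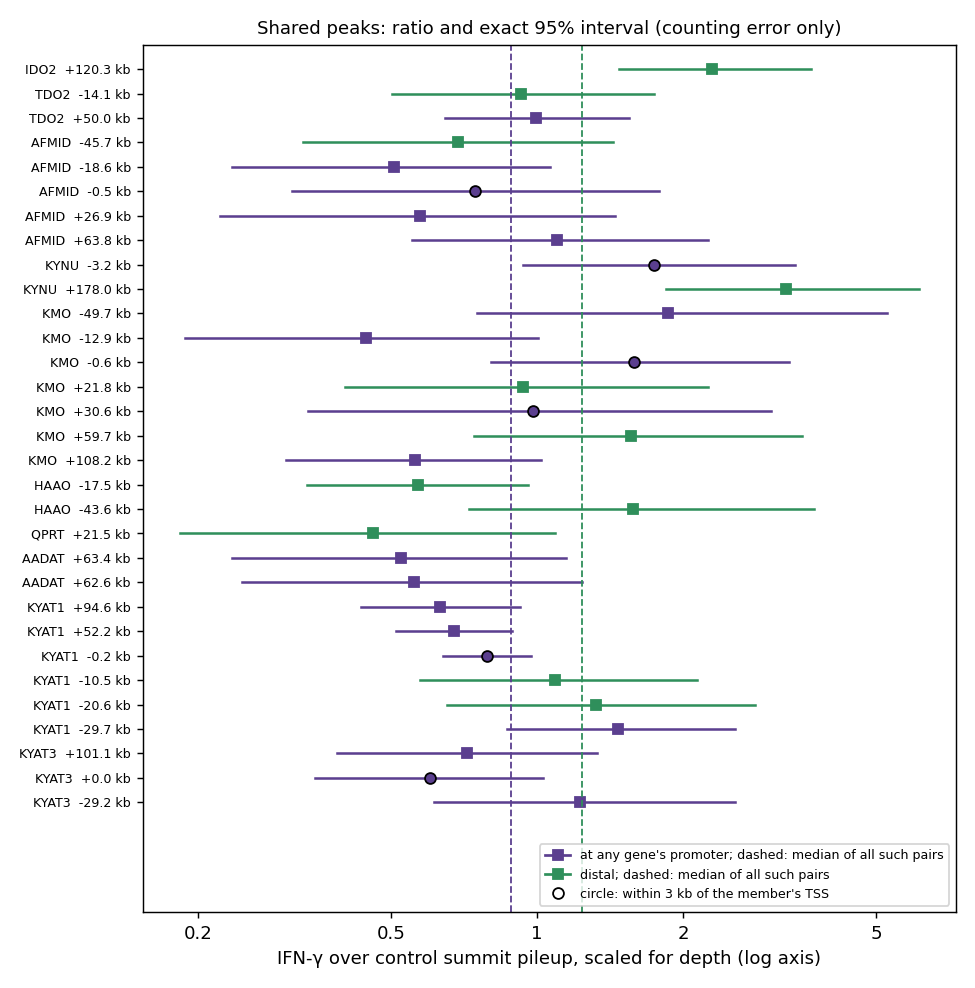
Depth-scaled ratio of IFN-γ to control summit pileup for the 31 shared pairs, on a log axis, with exact 95% intervals for counting error, labelled by gene and by the distance of the control summit from the MANE Select TSS. Dashed lines are the medians of all promoter pairs (0.883) and all distal pairs (1.24). Of the distal pairs, only *IDO2* at +120.3 kb and *KYNU* at +178.0 kb have whole intervals to the right of the distal line. Other distal points also lie to its right, with intervals that cross it.

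Peaks listed for a single library were set beside all such peaks. The 6 control peaks without a counterpart had 7 to 15 fragments, and 0 of the 6 ranked in the upper 50% of their list by −log10 p, beside 11.2% of all 6924 control peaks without a counterpart. The 19 IFN-γ peaks without a counterpart had 8 to 79 fragments, equal to 5.49 to 54.3 at the control depth, and 6 of the 19 ranked in the upper 50% of their list, beside 26.1% of all 15451 such IFN-γ peaks. Of these 19, 6 lay at *KYNU* and 5 at *IDO2*, the genes with the longest territories of the 10 (278 kb and 182 kb with the flanks). An AP-1 motif lay within 100 bp of 7 of the 19 summits (36.8%), beside 27.5% of all IFN-γ peaks without a counterpart, but of 0 of the 6 control summits, beside 15.7%. The ETS octamer was at 0 of the 19 IFN-γ summits and tandem GGAA units at 2 of 19 (10.5%), beside 11.2% and 13.99% of all such peaks. A GAS motif was at 3 of 19 (15.8%, beside 7.78%) and an ISRE-like motif at 4 of 19 (21.1%, beside 18.8%). The 6 control summits held none of these 4 motifs.

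Peak counts were also set against length. Over each gene with its 50 kb flanks, the median was 1.90 control and 3.09 IFN-γ peaks per 100 kb, beside 1.82 and 2.15 over all coding genes. The range was wide, from 0.550 at *IDO2* to 4.99 at *AFMID* in the control library and from 0.738 at *QPRT* to 6.65 at *AFMID* in the IFN-γ library.

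**Figure D5:**
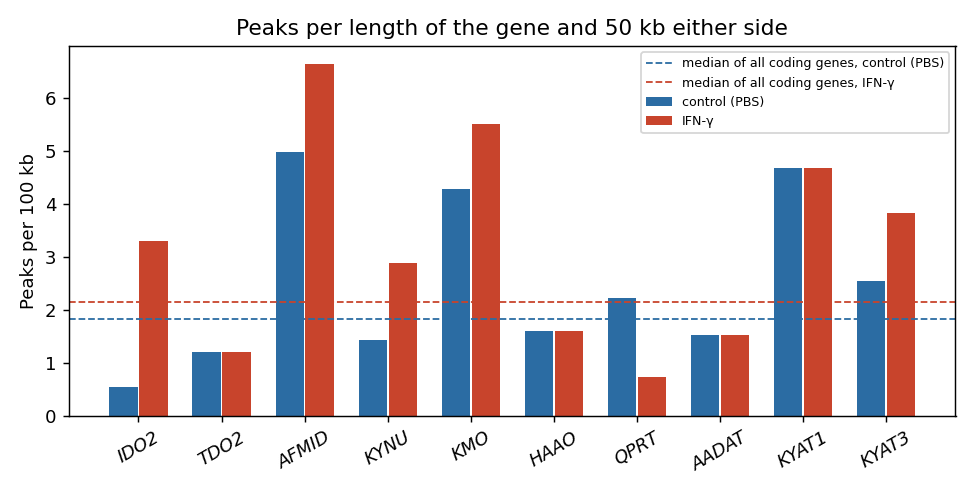
Peaks per 100 kb of each gene with its 50 kb flanks in both libraries, with the median over all coding genes as a dashed line for each library. *AFMID* stands highest in both, at 4.99 and 6.65.

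Motifs were counted in the 100 bp either side of each summit, on both strands. A GGAA core was present at 34 of 38 control and 48 of 51 IFN-γ summits, beside 96.1% and 97.9% of all summits. The ETS octamer CAGGAAGT or CCGGAAGT was at 5 and 6 summits of the 10 genes (13.2% and 11.8%, against 12.8% and 13.5% of all), among them *KYAT1*, *CTSO* and *KMO* exon 15. At least 4 GGAA units in tandem were at 3 and 5 summits (7.89% and 9.80%, against 6.94% and 10.8%), all of them at *KMO*, *KYNU* or *KYAT3*. The AP-1 motif was at 4 and 12 summits (10.5% and 23.5%, against 17.7% and 22.1%). The STAT motif GAS, TTCNNNGAA, was at 0 control and 3 IFN-γ summits, beside 5.33% and 6.38% of all. The ISRE-like motif GAAANNGAA was at 1 and 6, beside 8.42% and 13.4%. The octamer and the tandem units contain the core. A match is a description of the sequence and not a shown binding site.

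A list of 15 other genes of tryptophan and NAD metabolism was set beside the 10. A promoter peak was listed for 11 of the 15 in each library, namely *IL4I1*, *WARS1*, *SLC7A5*, *SLC3A2*, *GOT2*, *NAPRT*, *NAMPT*, *NADSYN1*, *NMNAT1*, *NMNAT2* and *NMNAT3*. Over all coding genes the share with such a peak was 61.9% (control) and 59.7% (IFN-γ). No difference between the 15 genes and the 10 was tested. None was listed for *IDO1*, the tryptophan hydroxylase genes *TPH1* and *TPH2*, or *ACMSD*, which diverts the pathway away from NAD. By −log10 p the strongest in the control library was at *NMNAT1*, a nuclear NAD synthesis gene, with 77 fragments and a fold of 33.3, although its nearest TSS was that of *LZIC*. In the IFN-γ library it was at *NAPRT*, with 181 fragments and a fold of 23.6. The summit of this *NAPRT* peak lay 1337 bp from a *NAPRT* TSS, and its nearest TSS was that of ENSG00000255050. The weakest were at *NADSYN1* and *NMNAT2* in the control, each with 14 fragments, and at *NAMPT*, the salvage enzyme of NAD synthesis, in the IFN-γ library, with 23 fragments and a fold of 4.28. Within each library, all of these pileups were below that at the *KYAT1* promoter.

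At the outer limit of the rule, the peak just inside 50 kb was that of *KMO*, 49.2 kb from the gene in the control library (fold 3.42) and 49.1 kb in the IFN-γ library (fold 4.40). The nearest peak left out lay at *AFMID*, 54.6 kb away in the control (fold 8.76) and 54.7 kb away in the IFN-γ library (fold 6.48).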

How the data were processed

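HK1 cells overexpressing Flag-FLI1 were profiled by Flag ChIP-seq after PBS or IFN-γ, 1 library each. The input libraries are not analysed here. By the study's methods and the submitters' processing notes, the authors trimmed reads with Cutadapt 1.18, mapped them to GRCh38 with Bowtie2 2.3.4.1, dropped duplicates with Picard, called peaks per library with MACS2 2.1.2 (p-value cutoff 0.01) and used ChIPseeker for annotation. The lowest −log10 p in the deposited lists is 3.52 (control) and 3.46 (IFN-γ), where that cutoff alone would allow lower values, and the reason is not given in the sources used here. Whether the input entered the calling is not given in the sources used here, and mapping of repeats can move values at GGAA runs.

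The deposited narrowPeak lists hold, for each peak, a display score, which was not used, the fold enrichment at the summit (a ratio), the −log10 p-value and the −log10 q-value. For every peak, fold and −log10 p as deposited were solved for a whole-number pileup and a background, and the relative error was at most 6.21e-06. Read totals are not in the lists, so depth was taken from the lowest backgrounds. Genes and TSSs were from GENCODE 44, and on all 24 chromosomes the peaks ended within the reference lengths. Peaks overlapping by at least 1 bp were shared, and a peak that met several was paired with the one of largest overlap. Promoter sequences were from RefSeq. Binomial intervals were Clopper-Pearson.

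The text names all 10 genes, their promoter peaks, the strongest peak of each gene per library, every shared pair, nearest genes, and the extremes of the list of 15. A few further peaks were named after their values were seen. The genes and lists were chosen with earlier results of these data known. Alternatives were other promoter windows, flanks, TSS sets, cutoffs, list lengths, depth scalings, definitions of a pair, motif windows and rankings. Recovery of the pileups, the peak rule, the nearest TSS and the interval were tested on simulated data, and the other steps were not. The computations used Python 3.11.15, numpy 2.4.6, scipy 1.17.1, pysam 0.24.0 and matplotlib 3.10.9.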

Additional observations from a re-analysis of the deposited data

How the results depend on the processing

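The 5 genes with a promoter peak per library did not change with the MANE Select TSS alone or a q-value under 0.01. With a 1 kb window, or with the summit required within 3 kb, *KYNU* dropped out in the control library. With a q-value under 1e-05, *KMO* dropped out in the control and *AFMID* in the IFN-γ library, and *AFMID* also did so in lists of equal length. By the whole rule, either of these settings left 9 genes with an IFN-γ peak and 10 with a control peak. The number of peaks taken depended on the flank. With 10 kb it was 17 control and 24 IFN-γ peaks, with gene bodies and promoters alone 12 and 17, and with only peaks nearest to the gene's own TSS 8 and 13, at 5 genes in the control library. The median ratio over the shared pairs, 0.927, became 0.916 when the libraries were scaled to a median ratio of 1 over all shared pairs and 0.857 when summits had to lie within 100 bp. Within 50 bp of the summits, 2 control and 8 IFN-γ peaks held an AP-1 motif, beside 4 and 12 within 100 bp. Of 48 recomputed main values 38 held to within the preset margin, which was wide. It passed a fall from 10 to 7 genes with a control peak when the flank was 10 kb. It also passed a rise from 51 to 72 IFN-γ peaks with a flank of 100 kb. That count is therefore not a measure of stability.

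No paired analysis was possible because there was only 1 library of each kind, and leaving out a replicate was not possible for that reason either. At the median of 15 control fragments per summit, intervals of single ratios are wide, as at the *AFMID* promoter (0.313 to 1.78), and weaker peaks are not in the lists.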
